A study of Mus musculus with 9 samples.

Results

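Lymphotoxin genes and genes of lymph node stroma were followed across the mammary glands of lactating mice. The set held 8 genes, read by 10 probes, of 27962 gene names and 41174 probes on the array. They were the lymphotoxin subunits Lta and Ltb, the related ligand Tnfsf13b, the receptor Ltbr, the chemokines Ccl19 and Cxcl13, the chemokine receptor Cxcr5 (Blr1 on the array) and the vascular addressin Madcam1. All probes carrying these names were taken. The set was chosen by the hNAG-1 against WT differences of these same arrays, in which Lta and Ltb stood out, so the genotype differences of its members are described here without a test.

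The study asked how a human transgene alters lactation. NAG-1, also called GDF15, is a secreted cytokine of the TGF-beta superfamily. Mammary gland number 4 was collected on lactation day 2 from 4 wild type (WT) dams and 5 dams that overexpressed human NAG-1 (hNAG-1). The labels give the strain background of all dams as C57BL/7, which differs from the strain named in the paper's text. RNA of each gland went onto its own 1-color Agilent array, from 500 ng of total RNA.

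The transgene was built for ubiquitous expression, so the tissue in which it acts cannot be read from the gland alone. The methods describe 2 transgenic lines and place most of the work on 1 of them, and the line of each array is not given in the labels. They also place gland collection after the fourth litter of a fertility study and state that glands were pulverized singly. The mouse array has no probe for the human transgene, so the genotype labels were not checked against it.

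Lymphotoxin beta is anchored in the membrane of lymphocytes and holds lymphotoxin alpha there as a complex. The complex binds the lymphotoxin beta receptor on stromal and endothelial cells, which then make the chemokines that bring T cells and B cells together in lymph nodes. Without lymphotoxin alpha or beta signals, mice form few or no lymph nodes. The number 4 gland of the mouse surrounds the inguinal lymph node, and the sources used here do not say whether the node was taken out.

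Ltb, Ccl19, Cxcl13 and Cxcr5 were at their highest level in the same 3 glands, WT 1, WT 2 and hNAG-1 4. Over the arrays, 5 of the 8 genes varied more than 10-fold, against 1.659% of the 23089 probes that were well above background on all arrays, which leave out Lta and Cxcr5. Ltbr, Madcam1 and Tnfsf13b stayed under 4-fold. Lta was also highest in WT 2 and WT 1, but low in hNAG-1 4.

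The sequences below show what was read for the ligand pair and the DNA ahead of Ltb, the gene with the widest range among the TNF family ligands. The first 30 bases of the 60-base probes are shown, 5′ to 3′, in lower case. The Lta probe lies at chr17:33299547-33299606 (mm7, minus strand) and the Ltb probe at chr17:33292571-33292630 (mm7, plus strand).
Lta probe: aggggaaaaatagaaagccgtcagatgaca
Ltb probe: atctgtattcattcctggaggatcgactga

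In GRCm38.p6, Ltb spans positions 35194507 to 35196305 of chromosome 17 and Lta spans 35203165 to 35205578, with Tnf, another ligand of the family, between them at 35199367 to 35202007. The RefSeq promoter table held 7 of the 8 members by symbol, all but Cxcr5. The 250 bases ahead of each start were searched on both strands for a core of NF-kappaB motifs, written as GGG, any 5 bases and CC, and for GAGGAA, a core of PU.1 motifs. Matches could overlap. The Ltb window, chr17:35194257-35194506 on the plus strand, is shown with both motifs in capitals.
Ltb promoter: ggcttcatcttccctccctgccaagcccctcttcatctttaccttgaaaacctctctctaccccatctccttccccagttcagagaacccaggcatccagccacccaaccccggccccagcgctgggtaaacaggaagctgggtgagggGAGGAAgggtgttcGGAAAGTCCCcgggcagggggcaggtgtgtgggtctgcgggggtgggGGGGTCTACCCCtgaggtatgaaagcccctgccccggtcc

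The Ltb window held 4 matches to the NF-kappaB core, starting 87, 40, 39 and 38 bases ahead of the start, of which the last 3 overlap. It held 1 match to GAGGAA. The Lta window held 2 overlapping matches to the NF-kappaB core and 0 to GAGGAA, and 227 of its 250 bases lie inside the annotated Lta gene. The NF-kappaB core occurred in the windows of 6 of the 7 members and GAGGAA in 2, against 45.8% and 23.3% of 32851 windows of the same length. These are descriptions of the letters only.

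Values are processed intensities scaled to each array's 75th percentile, called scaled intensity, and the level of one probe cannot be set against that of another. Arrays lay on 3 slides, with WT 1 on slide 1, hNAG-1 1 to 4 on slide 2, and WT 2 to 4 with hNAG-1 5 on slide 3. A comparison within a slide was therefore possible on slide 3 alone. It sets hNAG-1 5 alone against WT 2 to 4. The fit with slide as a fixed block draws its genotype difference from the same arrays. With no other hNAG-1 gland on slide 3, the SEs, p-values and counts of these fits do not measure hNAG-1 spread there. Between 59.8% and 76.1% of features were well above background on an array. Secretory epithelium markers such as Csn2 and Wap were well above background on all 9 arrays for 8 of 8 genes. Over all probes, limma called 1 at an adjusted p under 0.05 and 2307 (5.60%) at an unadjusted p under 0.05. The adjusted count was 138 with slide as a fixed block and 215 without hNAG-1 5, and 0 or 1 under the other alternatives.

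Lta encodes the secreted subunit of lymphotoxin. Its scaled intensity was 282 in WT 1, 561 in WT 2, 107 in WT 3 and 108 in WT 4. It was 91.9, 15.7, 43.7, 59.4 and 194 in hNAG-1 1 to 5. The 4 glands of slide 2 lay below every WT gland, and hNAG-1 5 lay above WT 3 and WT 4, so the genotypes overlapped.

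The mean difference for Lta was -1.81 on the log2 scale (SE 0.75, 4 WT and 5 hNAG-1 arrays). Within slide 3, with hNAG-1 5 as the only hNAG-1 array, it was 0.05 (SE 1.15 in the fit with slide as a block). Genotype and slide cannot be told apart for the other arrays. Without WT 2 the difference was -1.33.

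The Lta probe was spotted 10 times on each array. The coefficient of variation among spots ranged from 3.61% in WT 2 to 60.3% in hNAG-1 2. In hNAG-1 2 only 1 of 10 spots was well above background, and on the other arrays all 10 were. The lowest scaled intensity of a feature well above background there was 26.6, above the Lta mean of 15.7.

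Ltb encodes the membrane anchor of the complex. Its scaled intensity was 4939 in WT 1, 33317 in WT 2, 826 in WT 3 and 654 in WT 4. It was 907, 583, 843, 4494 and 1229 in hNAG-1 1 to 5. WT 2 stood far above every other gland, WT 1 and hNAG-1 4 were close to each other, and WT 3 and WT 4 lay within the range of the other hNAG-1 glands.

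The mean difference for Ltb was -1.36 on the log2 scale (SE 1.13). Without WT 2 it was -0.21. Within slide 3 it was -1.09 (SE 2.12 in the fit with slide as a block), from a group that holds WT 2.

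Tnfsf13b encodes BAFF, a survival factor for B cells. Its brighter probe read 142, 411, 164 and 146 in WT 1 to 4, and 171, 187, 154, 292 and 137 in hNAG-1 1 to 5. WT 2 and hNAG-1 4 stood above the rest, and the genotypes overlapped. The difference was -0.09 on the log2 scale (SE 0.35), and it was 0.12 when arrays were scaled to the median, 0.27 without WT 2 and -0.64 within slide 3.

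The second Tnfsf13b probe was dimmer and showed another pattern. It read 58.5, 59.2, 48.0 and 48.8 in WT 1 to 4, and 40.5, 31.4, 21.4, 38.7 and 51.3 in hNAG-1 1 to 5. Here WT 2 did not stand out and hNAG-1 5 lay among the WT glands. The difference was -0.60 on the log2 scale (SE 0.25), and -0.01 within slide 3.

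Ltbr encodes the receptor of the lymphotoxin complex, carried by stroma and epithelium rather than lymphocytes. It read 3349, 2515, 4688 and 4785 in WT 1 to 4, and 3612, 4018, 4140.0, 3880 and 3642 in hNAG-1 1 to 5. The hNAG-1 glands lay close together, inside the WT range, and the lowest value was in WT 2. The difference was 0.06 on the log2 scale (SE 0.21), and -0.09 without scaling and -0.13 without WT 2.

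Ccl19 encodes a chemokine that draws T cells and dendritic cells through CCR7. Its brighter probe read 2863, 15920 (WT 2), 494 and 323 in WT 1 to 4, and 375, 247, 369, 2276 and 406 in hNAG-1 1 to 5. The same 3 glands as for Ltb stood above the rest, and the others lay within 247 to 494 in both genotypes. Both probes lie on unplaced sequence of mm7, and near-identical gene copies cannot be told apart by them.

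The difference for Ccl19 was -1.71 on the log2 scale (SE 1.13). It was -0.62 without WT 2 and -1.75 within slide 3. The second probe gave -1.91 (SE 1.30), with its highest values in WT 2 (20258), WT 1 (3730) and hNAG-1 4 (2949).

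Cxcl13 encodes the chemokine that draws B cells into follicles. It read 1214, 6256, 496 and 224 in WT 1 to 4, and 153, 97.6, 162, 6920 and 569 in hNAG-1 1 to 5. The highest gland was hNAG-1 4, just above WT 2, and hNAG-1 1 to 3 were the lowest. The difference was -1.28 on the log2 scale (SE 1.35), and -0.38 without WT 2, -2.32 without hNAG-1 4 and -0.64 within slide 3.

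Cxcr5 encodes the receptor for CXCL13 on B cells. It read 413, 2813, 31.3 and 19.4 in WT 1 to 4, and 66.2, 12.97, 27.2, 345 and 100.2 in hNAG-1 1 to 5. It was well above background in WT 1, WT 2, hNAG-1 1, hNAG-1 4 and hNAG-1 5 only. The difference of -1.43 on the log2 scale (SE 1.51) became -0.06 without WT 2 and -0.25 within slide 3.

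Madcam1 encodes the addressin by which blood vessels of mucosal lymphoid tissue capture lymphocytes. It read 132, 212, 377 and 280 in WT 1 to 4, and 231, 266, 379, 436 and 312 in hNAG-1 1 to 5. Of the 3 glands with high Ltb, WT 1 and WT 2 had the lowest values and hNAG-1 4 the highest, and the genotypes overlapped. The difference was 0.44 on the log2 scale (SE 0.32), and 0.17 without WT 1 and 0.15 within slide 3.

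**Figure D1:**
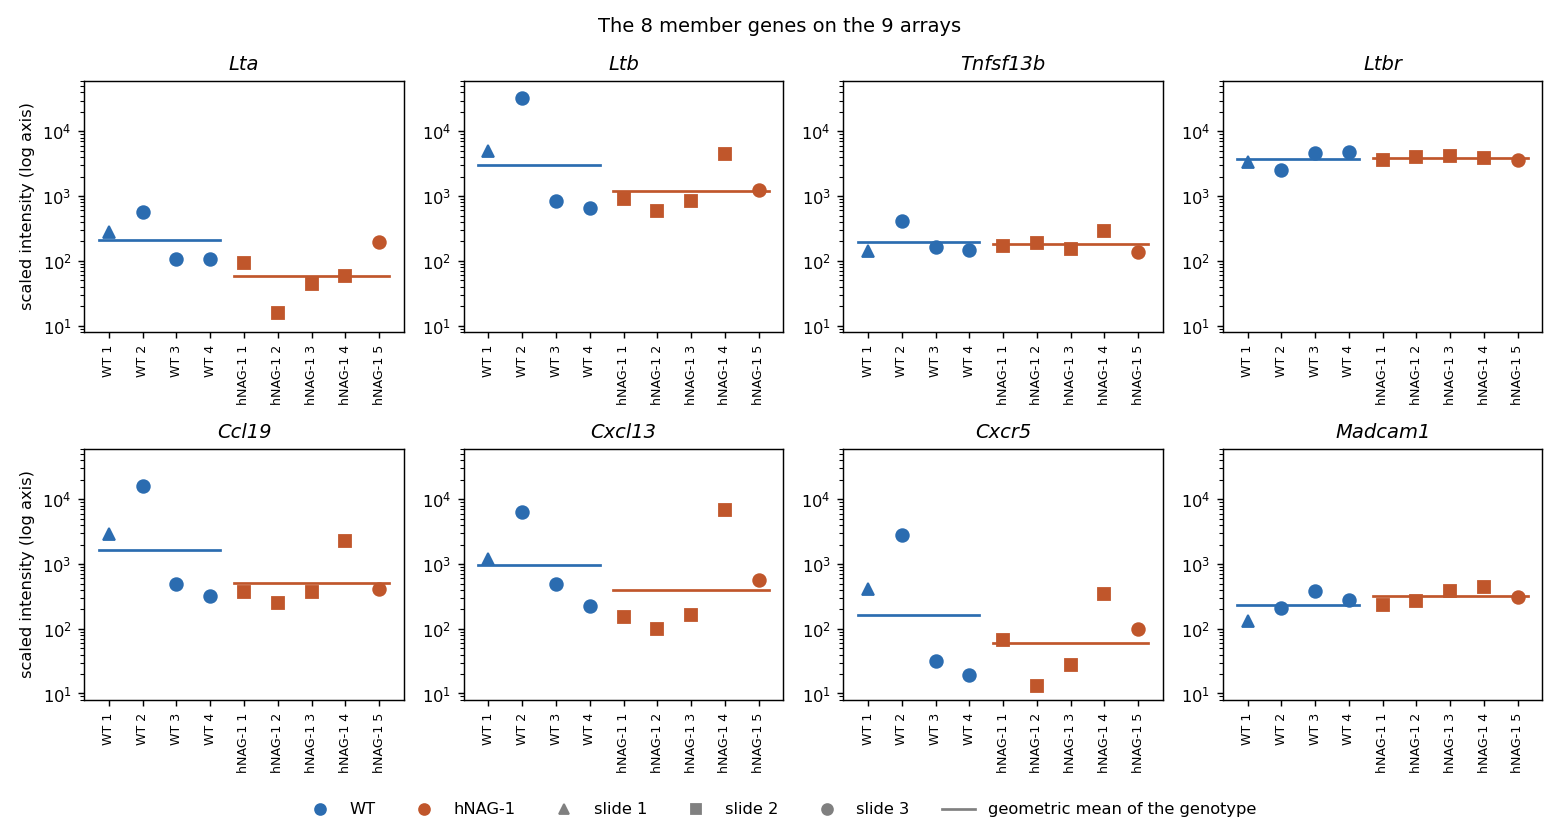
Scaled intensity (log axis) of each member gene by its brighter probe in 4 WT and 5 hNAG-1 arrays. Points are arrays, symbols mark slides and lines are geometric means of a genotype. Ltb, Ccl19, Cxcl13 and Cxcr5 peak in WT 1, WT 2 and hNAG-1 4, and Ltbr, Madcam1 and Tnfsf13b stay under 4-fold.

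Together, 6 of the 8 genes had a lower mean in hNAG-1, against 52.1% of all probes, and this number ran from 5 to 7 with the scaling. Their median difference was -1.32 on the log2 scale, against -0.02 over all probes, and it was -0.17 without WT 2 and -0.45 within slide 3. At least 2-fold lower were 5 genes, against 4.82% of all probes. Without WT 2 this was 1 gene (Lta), without hNAG-1 2 it was 3, and within slide 3 it was 2 (Ccl19 and Ltb). For 0 of the 8 genes did the genotypes separate, against 1.35% of all probes. The rule used this contrast, so these counts describe the choice.

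The next question was which other genes shared the pattern over glands. B cell and T cell scores were formed as the mean log2 deviation of 13 and 14 marker genes, none of them a member. The B cell score was 0.94 in WT 1, 3.54 in WT 2 and 0.71 in hNAG-1 4, and between -1.57 and 0.15 in the other 6 glands. The T cell score was likewise highest in WT 2 (2.58), WT 1 (0.63) and hNAG-1 4 (0.19).

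The summed scaled intensity of the B cell genes ran from 1458 to 41679.6 over WT glands and from 978 to 6012 over hNAG-1 glands. In this sum Cd79b gave 19321 of the 41679.6 in WT 2. For the T cell genes it ran from 7557 to 39960.4 and from 6364 to 10689, a sum in which Thy1 gave 7966 of the 10689 in hNAG-1 3. On all 9 arrays, 6 of 13 B cell genes and 12 of 14 T cell genes were well above background. In RNA from whole glands, fewer lymphocytes and less RNA per lymphocyte cannot be told apart.

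The members were chosen on these same arrays, and Ltb and Cxcr5 are themselves lymphocyte genes, so p-values of these relations only describe. Ltb rose and fell with both scores. Its Pearson correlation with the B cell score was 0.97 over 9 arrays (exact permutation p = 0.0001, adjusted p = 0.00038 over 16 relations), with Spearman's rho 0.92 (exact permutation p = 0.00131, adjusted 0.0035). After WT 2 and WT 1, the glands farthest from the median score, were left out, r was 0.86. For deviations from the genotype means it was 0.97, so the relation did not rest on the difference between genotypes.

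Ccl19, Cxcr5 and Cxcl13 behaved alike. Their correlations with the B cell score were 0.96, 0.96 and 0.88 (exact permutation, adjusted p = 0.00052, 0.00038 and 0.00125), with rho 0.97, 0.97 and 0.90 (adjusted p = 0.00066, 0.00066 and 0.00406). Without WT 2 and WT 1 they were 0.82, 0.91 and 0.92. With the T cell score, r was 0.97, 0.94 and 0.80 for these genes and 0.97 for Ltb.

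Lta had an r of 0.81 with the B cell score (exact permutation p = 0.00844, adjusted 0.0132) and a rho of 0.78 (adjusted 0.0276). Without WT 2 and WT 1 its r was 0.55 (exact permutation, adjusted p = 0.313), and without WT 2 alone 0.69 (adjusted 0.0963), so by r the relation passed the threshold only with WT 2 included. In hNAG-1 4, where only WT 2 and WT 1 had more Ltb, only hNAG-1 2 and hNAG-1 3 had less Lta.

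The flat genes had relations of both signs. Ltbr had an r of -0.84 with the B cell score (exact permutation, adjusted p = 0.0134), which was -0.30 without WT 2 and WT 1 and -0.12 without scaling. Tnfsf13b had an r of 0.73 (exact permutation, adjusted p = 0.0425) but a rho of 0.12 (adjusted 0.776), and without WT 2 its r was 0.21. Madcam1 had an r of -0.37 (exact permutation, adjusted p = 0.322).

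In all, 14 of the 16 relations had an adjusted p under 0.05 by r and 10 by rho, both scores included, and 8 by r without WT 2. How many of all probes reach such a relation, here or for the slide deviations below, was not counted. For deviations from the slide means, over the 8 arrays of slides 2 and 3, r with the B cell score was 0.99 for Ltb, 0.98 for Ccl19, 0.99 for Cxcr5, 0.87 for Cxcl13 and 0.79 for Lta (exact permutation within slides, adjusted p = 0.00694, 0.0243, 0.00694, 0.0119 and 0.0505). It was -0.88 for Ltbr, 0.94 for Tnfsf13b and -0.26 for Madcam1 (exact permutation within slides, adjusted p = 0.0389, 0.0536 and 0.519). With the T cell score it was 0.79 for Lta (exact permutation within slides, adjusted p = 0.0389). By these, 10 of the 16 relations had an adjusted p under 0.05. This setting was added after the values had been seen. The part of lymphocyte content in the differences between glands was not tested.

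**Figure D2:**
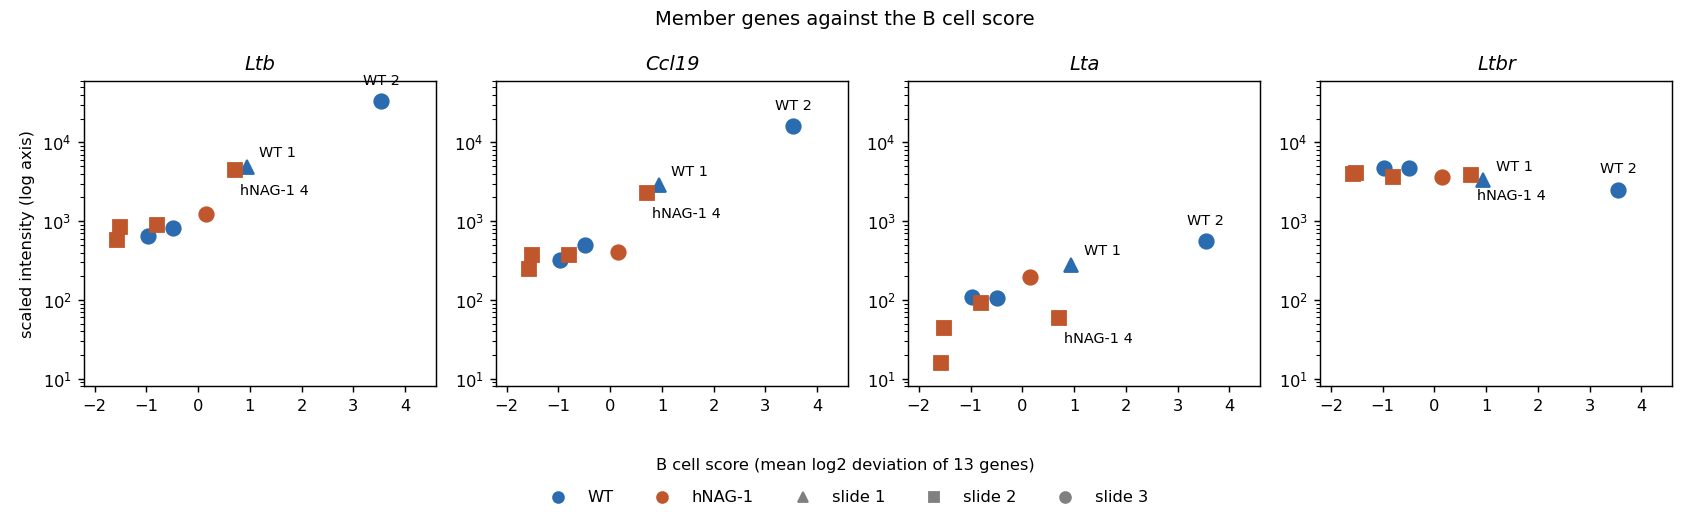
Scaled intensity (log axis) of Ltb, Ccl19, Lta and Ltbr against the B cell score, the mean log2 deviation of 13 marker genes. Each point is an array. Ltb and Ccl19 climb with the score through WT 1, hNAG-1 4 and WT 2, Lta is low in hNAG-1 4, and Ltbr is lowest in WT 2.

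For pairs of genes, no share over all probes was counted. Among the members themselves, 10 of 28 pairs had an adjusted p under 0.05 by r and 8 by rho. The pair with the highest r was Ltb with Ccl19, at 0.99 (exact permutation, adjusted p = 0.00258), rho = 0.90 (adjusted 0.0189) and r = 0.97 without WT 2 and WT 1. Ltb and Cxcr5 had an r of 0.98 (exact permutation, adjusted p = 0.00015) and the highest rho, 0.98. The subunits Lta and Ltb had an r of 0.70 (exact permutation, adjusted p = 0.0691) and a rho of 0.65 (adjusted 0.155). Ltb thus tracked the stromal chemokines more closely, in value, than its partner, and the difference between these correlations was not tested.

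Genes most like each subunit were sought among 14219 named genes well above background on all arrays, by Pearson r over the 9 arrays. The 5 nearest to Ltb were Cd3d, H2-Oa, Cd79b, Pglyrp2 and Ptprcap, with r from 0.9903 to 0.9945. Cd3d is a subunit of the T cell receptor complex and Cd79b of the B cell receptor. Cd79b read 2937 in WT 1, 19321 in WT 2 and 2681 in hNAG-1 4, and at most 650.0 in the other glands.

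Among the nearest to Lta were A430106J12Rik, Slc25a14, 2810442I21Rik and Cnot6l, with r from 0.9485 to 0.9587. None of these is in the B cell or T cell lists. The transcript 2810442I21Rik read 228, 414, 176 and 122 in WT 1 to 4, and 119, 57, 112, 103 and 297 in hNAG-1 1 to 5. As for Lta, slide 2 held the lowest values, and hNAG-1 5 lay within the WT range.

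The percent of features well above background was 69.0, 76.1, 70.0 and 71.3 in WT 1 to 4, and 69.7, 60.3, 64.6, 59.8 and 73.3 in hNAG-1 1 to 5. This measure was set against the members after the values had been seen. Lta had an r of 0.85 with it (exact permutation p = 0.00374, adjusted 0.0299 over 8 genes), and a rho of 0.78 (exact permutation p = 0.0172, adjusted 0.138). Without hNAG-1 4 and hNAG-1 2, r was 0.82, and for deviations from the genotype means 0.77. For deviations from the slide means it was 0.74 (exact permutation within slides, p = 0.0538, adjusted 0.215). Leaving out 1 array gave r from 0.78 to 0.91, with adjusted p from 0.0123 to 0.17 by exact permutation, and the adjusted p was 0.0725 without WT 2 and 0.0739 with normexp background correction.

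For the other 7 genes r lay between -0.40 and 0.38, with adjusted p of at least 0.571 by exact permutation. Without hNAG-1 4 and hNAG-1 2, r was 0.59 for Ltb, 0.61 for Tnfsf13b, 0.55 for Ccl19, 0.70 for Cxcl13 and 0.62 for Cxcr5. Whether the relation differed between Lta and these genes was not tested. The low Lta glands of slide 2 thus included those with the fewest features above background. The part of array detection in the Lta values was not tested.

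**Figure D3:**
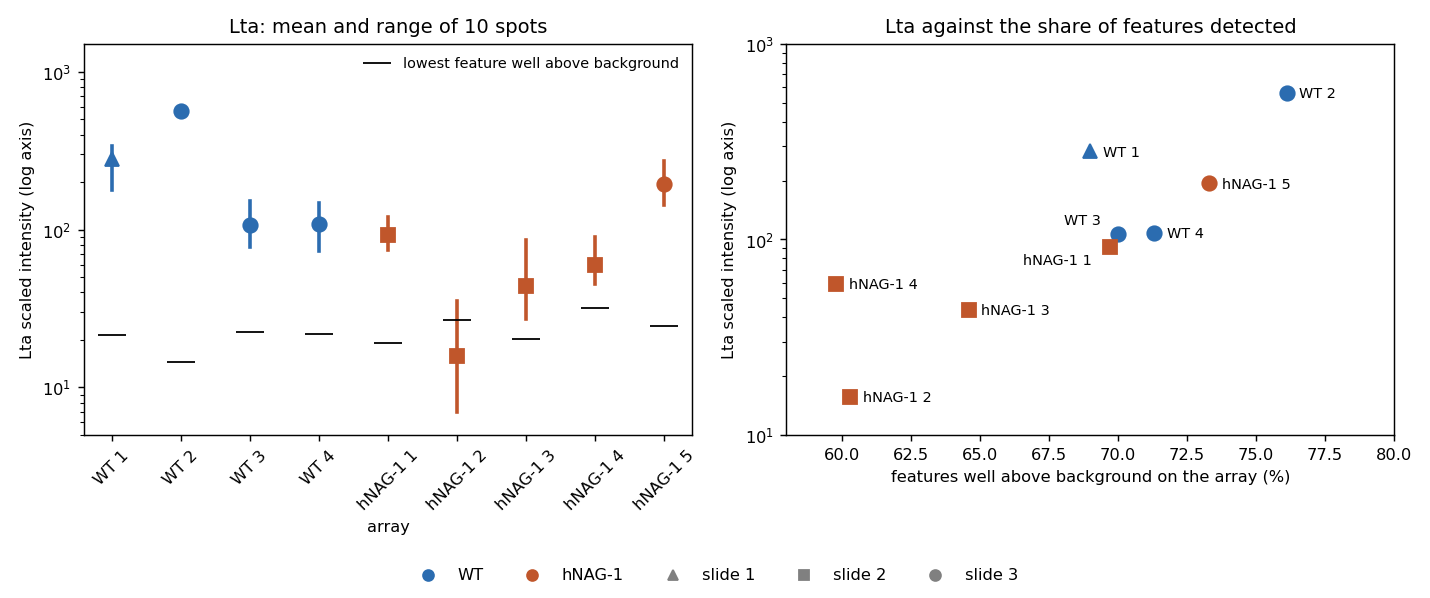
Left, mean (symbol) and range (line) of the 10 Lta spots on each array, with the lowest feature well above background as a dash. Right, Lta against the percent of features well above background. The y axes are logarithmic. The hNAG-1 2 mean of 15.7 lies below its dash of 26.6, and Lta is highest in WT 2, where 76.1% of features were well above background.

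The rest of the pathway was read from 4 fixed lists of 47 genes that hold no member. At an unadjusted limma p under 0.05 there was 1 gene of 47, against 5.60% of all probes in either direction and 4.45% lower in hNAG-1. At an adjusted p under 0.05 there were 0, against 0.00243% of all probes. The 1 gene was lower in hNAG-1, and the count was 0 without WT 2, hNAG-1 2 or hNAG-1 3.

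Lymphoid stroma and high endothelial venule genes had a median difference of -0.87 on the log2 scale, with 16 of 17 lower in mean and 1 past the unadjusted threshold. Without WT 2 the median was -0.21. Il7, a survival factor for lymphocytes made by stroma, had a difference of -1.92 (SE 0.77, limma unadjusted p = 0.0338, adjusted 0.661), and -1.52 with the slide block (limma unadjusted p = 0.239). It was well above background on 3 of 4 WT and 2 of 5 hNAG-1 arrays. A second Il7 probe, well above background on 1 of 4 WT and 2 of 5 hNAG-1 arrays, gave -0.34, and 1.53 with the slide block, and the other Il7 probe was not well above background on any array. With the slide block, which rests on hNAG-1 5 alone, Traf3 had -0.64, against -0.12 without the block. Traf3, an inhibitor of noncanonical NF-kappaB signaling, is named here for its value with that block.

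A probe that the array names Ccl21c, taken here for the Ccl21 genes, which encode the other ligand of CCR7, had the largest difference of the list, -2.88 (SE 1.30, limma unadjusted p = 0.0525, adjusted 0.661). It read 3349, 28035, 1279 and 368 in WT 1 to 4, and 312, 52.6, 296, 1686 and 648 in hNAG-1 1 to 5. WT 2, WT 1 and hNAG-1 4 were again the 3 highest. The probe lies on unplaced sequence, and the near-identical copies Ccl21a, Ccl21b and Ccl21c cannot be told apart by it. Pdpn, a surface protein of lymph node stroma, had a difference of -0.63 (SE 0.30, limma unadjusted p = 0.0655, adjusted 0.661), and its second probe gave 0.25.

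Lymphotoxin and TNF receptor signaling genes had a median difference of -0.18, which was 0.04 when arrays were scaled to the median. Of 17 genes, 13 were lower in mean and 0 passed the unadjusted threshold by their brightest probe. Nfkb1, a subunit of NF-kappaB, had a difference of -0.32 (SE 0.16, limma unadjusted p = 0.0765, adjusted 0.661). A dimmer Nfkb1 probe gave -0.62 (SE 0.16, limma unadjusted p = 0.00308, adjusted 0.661). Tnfsf14 (LIGHT), another ligand of the lymphotoxin beta receptor, had -0.86 (SE 0.51), and Ikbkg, a subunit of the IKK complex, -0.17 (SE 0.15).

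Of the BAFF relatives, 3 of 4 were lower in mean, with a median of -0.78, or -0.06 without WT 2, and 0 passed. These were the receptors Tnfrsf13c at -1.25 (SE 1.30), Tnfrsf13b at -0.78 (SE 0.60) and Tnfrsf17 at -0.78 (SE 0.67). Tnfrsf13c, the BAFF receptor of B cells, read 251 in WT 1, 2103 in WT 2 and 245 in hNAG-1 4, and at most 101 in the others. Its ligand Tnfsf13b, given above, spanned 3.00-fold over the arrays.

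The neighbors of Lta and Ltb on chromosome 17 had a median difference of -0.02 over 9 genes, with 5 lower and 4 higher in mean and 0 past the threshold. The median became 0.19 when arrays were scaled to the median and -0.17 without scaling. Bat2 had a difference of 0.22 (SE 0.15), Apom of -0.30 (SE 0.23) and Bat3 of 0.16 (SE 0.16). Over the arrays, Lst1 ranged 4.90-fold and Aif1 3.57-fold, both chosen here after their values were seen, and the other 7 between 1.29-fold and 2.35-fold. Aif1, a macrophage gene, was highest in hNAG-1 4 (7931) and WT 2 (6834). Tnf, which lies between Ltb and Lta, was counted with the signaling genes and is named here after its values were seen. It ranged 5.48-fold, was highest in hNAG-1 4 (265) and WT 2 (187), and had a difference of -0.06 (SE 0.54).

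**Figure D4:**
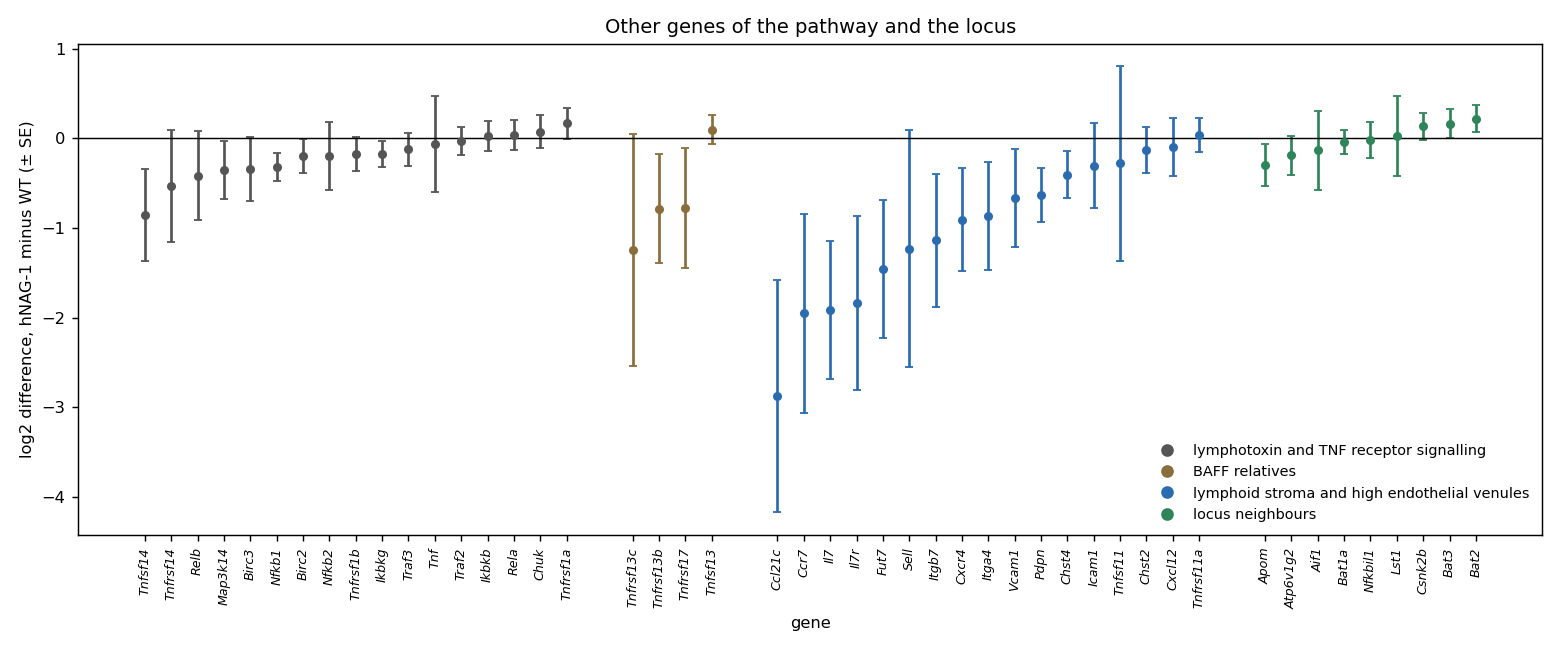
Difference between hNAG-1 and WT (log2 scaled intensity ± SE of the limma fit, 4 and 5 arrays) for the 47 genes of 4 lists, each by its brightest probe. Stroma and venule genes reach -2.88 (the probe named Ccl21c), and the neighbors of Lta and Ltb lie between -0.30 and 0.22.

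Lymphocyte genes were lower in mean in hNAG-1 as well, without an adjusted call. Against 52.1% of all probes lower in mean and 5.60% past the unadjusted threshold, for B cells this held for 13 of 13 genes (median -1.36, or -0.42 without WT 2) and for T cells for 13 of 14 (median -1.18, or -0.33 without WT 2), each with 1 gene past the unadjusted threshold. Cr2, a complement receptor of B cells, had -0.75 (SE 0.31, limma unadjusted p = 0.0389, adjusted 0.661), and 0.23 with the slide block. Its second probe gave -1.91 (SE 1.45, limma unadjusted p = 0.219), and -0.04 with the slide block. That probe was well above background on 2 of 4 WT and 2 of 5 hNAG-1 arrays. It was highest in WT 2 (859), where the brighter probe read 144, within its WT range of 141 to 169. The B cell genes Cd79a, of the B cell receptor, and Cd37, a tetraspanin, had -1.05 (SE 0.48) and -1.25 (SE 0.63). Cd2, a T cell adhesion receptor, had -1.50 (SE 0.66, limma unadjusted p = 0.0488, adjusted 0.661), and -0.92 with the slide block (limma unadjusted p = 0.466). The kinase Zap70 had -1.08 (SE 0.55). The costimulatory receptor Cd28 was well above background on 1 of 4 WT and 0 of 5 hNAG-1 arrays, so no difference is given for it.

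Lists for the other cells of the gland moved less over the arrays. Secretory epithelium had a median of 0.09, which was -0.05 without scaling. Adipocytes had 0.45, endothelium 0.24, fibroblasts 0.14 and macrophages -0.10, with 0 genes past the unadjusted threshold in any of them. Without WT 1 the adipocyte median was 0.05 and that of fibroblasts -0.10, and without WT 2 that of macrophages was 0.11. Within slide 3 they were 0.14 for adipocytes, -0.24 for endothelium, 0.15 for fibroblasts and -0.44 for macrophages. The mean log2 deviation of the epithelial genes was lowest in WT 2 (-0.50) and highest in WT 1 (0.31), against a span of -1.57 to 3.54 for the B cell genes.

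**Figure D5:**
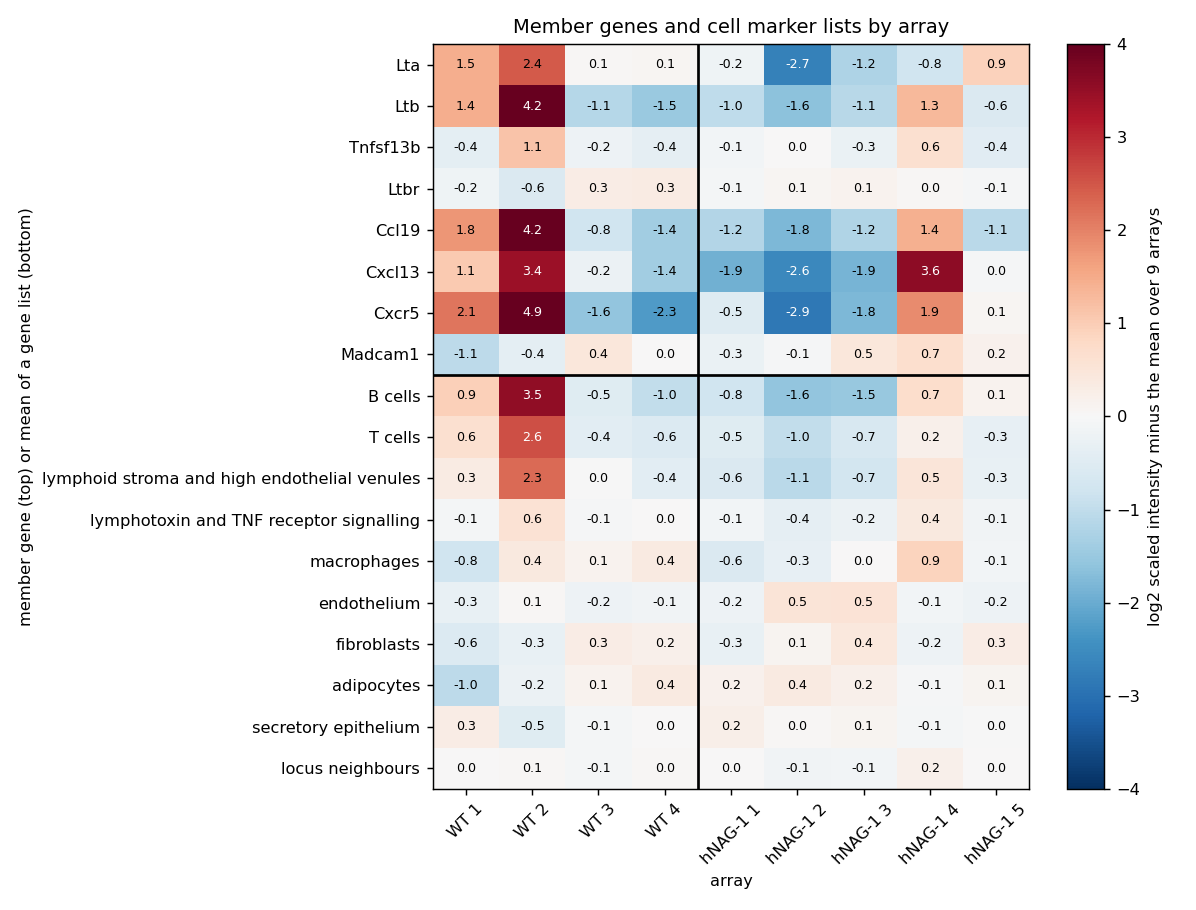
Log2 scaled intensity minus the mean over 9 arrays, for the 8 member genes (top) and as the mean of each gene list (bottom), with WT arrays left of the vertical line. Ltb, Ccl19, Cxcl13, Cxcr5 and the B cell list are high in WT 1, WT 2 and hNAG-1 4, and the epithelial and locus lists stay near 0.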

How the data were processed

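The authors deposited the scanner output of 9 arrays as intensity per feature, background subtracted by Agilent Feature Extraction version 9.5.3.1 and not scaled between arrays. Their methods name an analysis of variance at a p threshold of 0.05. Here, control features were dropped, a probe took the mean of its spots, and log2 followed division by the 75th percentile of each array (533 to 1185). Genotypes were compared over 41174 probes with limma 3.58.1 in R 4.3.3 (lmFit, eBayes, two-sided, Benjamini-Hochberg), without covariates. The fit was tested on simulated data. Correlations used exact permutation over all orders of the arrays, two-sided (scipy 1.17.1, numpy 2.4.6). A gene was read by its probe with the highest mean log2 value.

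Members and lists were chosen with earlier results of these data known. Named from each list were genes with an adjusted p under 0.05 or otherwise the 3 of lowest p, given by value for 6 of the lists, and the 5 genes most like Lta and Ltb, of which 1 is not reported here. Promoters were RefSeq sequences of GRCm38.p6. The number of arrays limits the precision. Alternatives were normexp with an offset of 50, quantile, median and no scaling, a floor of 20, a filter on dim probes, the methods' test, slide as a block, a replicate block, the mean over probes and leaving out each array.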

Additional observations from a re-analysis of the deposited data

Results flagged for a closer look

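Within a genotype, the member probes were searched for an array far from the rest, in 20 groups. The gap of the outermost array, as a share of the group's range, was 0.776 for hNAG-1 4 in Ccl19 and 0.71 for the same array in its second probe. It was 0.869 for WT 2 in Tnfsf13b. In each case the array was the highest of its genotype. Chance flags about 1 in 20 such groups, and the 3 found are not independent, since Ccl19 was read by both of its probes on the same arrays.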

How the results depend on the processing

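The number of probes with an unadjusted p under 0.05 was 2307 (20.5% higher in hNAG-1). It was 1058 (52.6%) with normexp, 2619 (57.5%) with quantile normalization, 3608 (70.7%) with median scaling, 2066 (2.90%) without scaling, 2001 (38.8%) with a floor of 20, 1983 (36.9%) with the methods' test, 3134 (90.8%) with slide as a fixed block, 3723 on slide 3 alone and 1475 with slide as a random block. Median scaling moved the median of all probes to 0.196 and no scaling to -0.164 on the log2 scale. Leaving out 1 array gave 1163 to 5924 probes, 0 to 4 of the 47 pathway genes (0 without WT 2, hNAG-1 2 or hNAG-1 3) and 8 to 14 of the 16 relations, with 8 also after the 2 farthest arrays were left out. The pathway count of 1 was 2 with normexp, 0 with quantile and 2 without scaling. The locus median was 0.192 with median scaling, -0.169 without scaling and 0.150 with slide as a fixed block or alone, where the endothelial median was -0.236. The Lta difference moved to 0.055 with the slide block. Leaving out 1 array gave a member median of -2.04 to -0.17 and, by gene, -2.23 to -1.33 for Lta and -2.10 to -0.21 for Ltb. Replicate numbers did not pair the arrays (correlations of deviations 0.279, -0.199, -0.142 and -0.307), and with the replicate block 5447 probes had an unadjusted p under 0.05. The cause of these shifts was not tested.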
